A study of Mus musculus with 75 samples.

Results

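The amino acid transporter genes described here, 7 in all, were followed in mouse CD4 T cells through stimulation, through culture with regulatory T cells (Tregs) and across ribosome fractions. They were chosen by their Ensembl identifiers in the count tables, 7 of 53465 identifiers: Slc7a5 (ENSMUSG00000040010), Slc3a2 (ENSMUSG00000010095), Slc1a5 (ENSMUSG00000001918), Slc38a1 (ENSMUSG00000023169), Slc38a2 (ENSMUSG00000022462), Slc7a1 (ENSMUSG00000041313) and Slc7a6 (ENSMUSG00000031904). All 7 passed the filter on low counts in both assays, with 58 to 2082 reads per library. In RefSeq's annotation of GRCm38, the build of the tables, all are protein coding. Slc7a5 lies at chr8:121881146-121907686, and Slc7a6 lies on the same chromosome at chr8:106168219-106198714. Slc38a1 at chr15:96571418-96643438 and Slc38a2 at chr15:96687392-96699728 also share a chromosome. Slc3a2 is at chr19:8706882-8723369, Slc1a5 at chr7:16781334-16798274 and Slc7a1 at chr5:148327410-148399904.

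Resting T cells need few amino acids, and cells that grow and divide after antigen receptor engagement import large amounts of them for protein synthesis. Slc7a5 (LAT1) carries leucine and other large neutral amino acids and works at the cell surface only as a dimer with the heavy chain Slc3a2 (CD98 heavy chain). Slc7a6 is another light chain that pairs with Slc3a2 and exchanges cationic for neutral amino acids. Slc1a5 (ASCT2) exchanges neutral amino acids including glutamine, Slc38a1 and Slc38a2 (SNAT1 and SNAT2) take up small neutral amino acids together with sodium, and Slc7a1 (CAT1) imports arginine and lysine. Leucine taken up through Slc7a5 feeds the mTORC1 pathway, which controls translation, and Slc38a2 is a textbook case of a transporter gene whose mRNA rises when cells lack amino acids.

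The title of the series places it in the study of translation control during CD4 T cell activation and its restraint by Tregs. It measured gene-level read counts in total and ribosome-associated RNA. In RiboTag, CD4+CD25- effector cells came from spleen and lymph nodes of 5 mice, crosses of B6N.129-Rpl22tm1.1Psam/J with B6.Cg-Tg(Cd4-cre)1Cwi/BfluJ. In this cross, Cre under Cd4 control replaces Rpl22, a protein of the large ribosomal subunit, by a hemagglutinin-tagged form. Cd4 is active while T cells develop, so within mice of this cross the tag is not confined to effector cells. RNA precipitated with the tagged ribosomes (IP) was sequenced beside RNA of the same culture before precipitation (Input). Each RiboTag mouse gave 3 cultures: one rested in IL7, one stimulated by beads coated with anti-CD3 and anti-CD28, and one stimulated that way beside Tregs, which made 30 libraries. In SPEED, effector cells of 4 mice of the strain B6.SJL-PtprcaPepcb/BoyJ gave Input, a polysomal fraction (Pol) and a subpolysomal fraction (SubPol) from sucrose. The SPEED cultures were untreated, bead-stimulated, bead-stimulated with Tregs, and bead-stimulated with HHT for 10 min, in 45 libraries. By the sample titles, HHT gave 3 mice in Pol and SubPol and 2 in Input. The Tregs were CD4+YFP+ cells, and all cultures grew in RPMI-1640 with fetal bovine serum, GlutaMAX and added non-essential amino acids. Ages of the mice, the hours of culture and whether Tregs were taken out before lysis are not stated in the sources used here, so Input and the sucrose fractions of Treg cultures may hold RNA of the Tregs. That part in the results below was not tested. The labelled cell types could not be checked against their markers here, because only the identifiers of the 7 transporters were paired with symbols.

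RiboTag libraries held 1658481 to 2824875 counts in genes and SPEED libraries 1566501 to 4621104. Tests covered 10751 genes in RiboTag and 12428 in SPEED. Levels below are TMM-scaled counts per 1000000 counts of the library (CPM), which compare samples for 1 gene and not genes with each other, since transcript lengths were not used. Changes are log2 fold changes from edgeR's quasi-likelihood test, with Benjamini-Hochberg adjustment over all tested genes, and a gene is called at an adjusted p under 0.05. The SubPol library of untreated mouse 3 stood apart, with 12851 genes detected against 13556 to 13735 in the other 3. In stimulated RiboTag Input, mice 1 and 2 lay below mice 3 to 5 for 5 of the 7 transporters (all but Slc38a1 and Slc38a2). Values for mice 3 to 5 alone are given where they change a call. That split follows the stimulated values themselves, which can enlarge differences from stimulated cells. The p-values of mice 3 to 5 alone are therefore descriptive and no independent support. Since libraries are scaled to their own totals, lower total RNA, or fewer ribosomes on all mRNAs together, leaves no trace in these values. In bulk RNA, fewer cells of a type and less RNA per cell cannot be told apart.

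Stimulation raised the RNA of 5 of the 7 transporters in RiboTag Input and lowered that of 1. Slc7a5 rose most, 4.59-fold, Slc1a5 rose 1.79-fold (log2 0.84), Slc38a1 and Slc7a6 each about 1.56-fold (log2 0.64), and Slc3a2 rose 1.41-fold. Slc38a2 moved the other way and fell to 0.633 of its rested level. Across all genes, 32% were called higher and 31.4% lower in this comparison, so most genes changed. The median log2 change of the 7 was 0.64, against -0.005 over all genes tested.

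In mice 1 to 5, Slc7a5 stood at 49.2, 57.1, 53.8, 72.0 and 85.8 CPM in rested Input. The same mice reached 224, 222, 318, 374 and 315 CPM after stimulation. No rested library came near a stimulated one, and stimulated mice 1 and 2 lay below mice 3 to 5. The log2 change was 2.20 (SE 0.227, adjusted p = 5.94e-10, higher in 5 of 5 mice). Its obligate partner Slc3a2 stood at 183, 160, 193, 157 and 182 CPM in rested Input and at 196, 182, 284, 280.1 and 290.1 CPM in stimulated Input. Stimulated mouse 2 fell within the rested range, mouse 1 lay just above it, and mice 3 to 5 lay well above it. For Slc3a2 the log2 change was 0.50 (SE 0.115, adjusted p = 3.84e-04, higher in 5 of 5 mice), and 0.71 in mice 3 to 5 alone.

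The exchanger Slc1a5 went from 154, 186, 149, 180.4 and 135 CPM at rest to 245, 243, 331, 324 and 299 CPM, with no overlap between the groups (log2 0.84, SE 0.117, adjusted p = 2.17e-07). Slc38a1 went from 181, 189.7, 169, 190.4 and 148 CPM to 261, 265, 285, 302 and 255 CPM, also with no overlap (log2 0.64, SE 0.0914, adjusted p = 3.52e-07). Slc38a2 stood at 249, 265, 331, 331 and 376 CPM at rest and at 156, 212, 176, 227 and 209 CPM after stimulation. Every rested library lay above every stimulated one, and the log2 change was -0.66 (SE 0.137, adjusted p = 1.04e-04, lower in 5 of 5 mice). So the 2 sodium-coupled SNAT transporters changed in opposite directions in the same libraries.

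The arginine and lysine transporter Slc7a1 did not behave alike in all mice. Its rested Input values were 61.3, 57.6, 39.0, 37.7 and 34.4 CPM in mice 1 to 5, and its stimulated values were 37.6, 44.4, 69.7, 74.2 and 72.8 CPM. It was lower after stimulation in mice 1 and 2 and higher in mice 3 to 5. Over all 5 mice its log2 change of 0.38 (SE 0.197) missed the test (adjusted p = 0.0887), while it passed without mouse 1 (0.64, adjusted p = 0.0102), without mouse 2 (0.58, adjusted p = 0.0196) and in mice 3 to 5 alone (0.99, adjusted p = 8.69e-05). Slc7a6, the other light chain, had rested values of 50.6, 76.0, 92.8, 39.6 and 45.2 CPM and stimulated values of 83.2, 69.8, 123, 87.7 and 110.1 CPM. Its ranges overlapped, mouse 2 was slightly lower after stimulation, and the log2 change of 0.64 (SE 0.201, adjusted p = 6.45e-03) was lost without mouse 5 (0.50, adjusted p = 0.066).

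**Figure D1:**
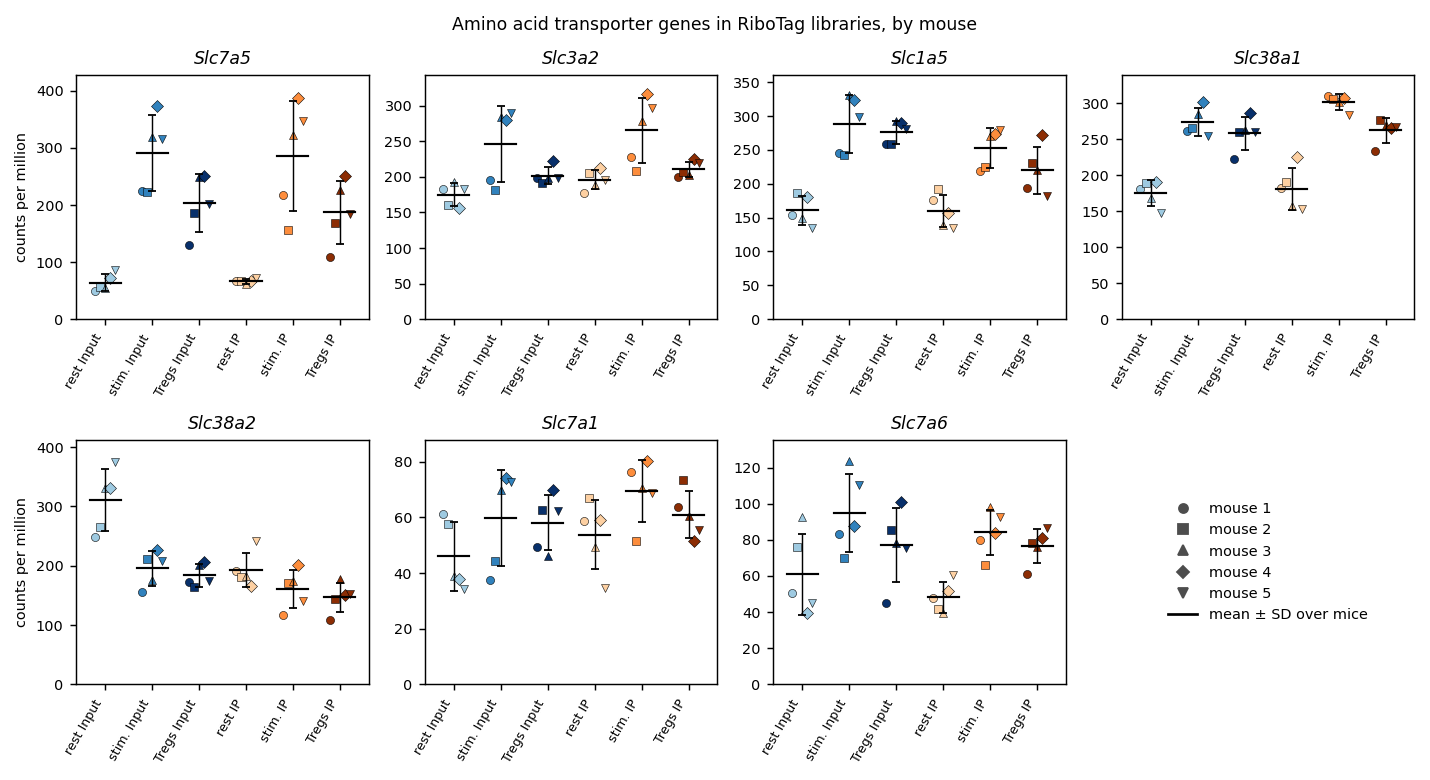
Levels of the 7 genes in TMM-scaled CPM (y axis, from 0) in the 6 RiboTag groups (x axis), 1 point per mouse with a marker for each mouse, and bars for mean and SD over 5 mice. Slc7a5 goes from 49.2 to 85.8 CPM in rested Input to 222 to 374 CPM in stimulated Input, and Slc38a2 is highest in rested Input.

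RNA on tagged ribosomes followed a similar course for most of the genes. In IP, 5 of the 7 were higher after stimulation and 0 lower, where 33.6% of all genes were higher and 31.1% lower. The 5 were Slc7a5 (4.29-fold), Slc7a6 (1.74-fold), Slc38a1 (1.66-fold), Slc1a5 (1.58-fold) and Slc3a2 (1.36-fold). In IP of mice 1 to 5, Slc7a5 stood at 67.6, 66.1, 60.9, 66.3 and 73.0 CPM at rest and at 218, 156, 323, 387 and 347 CPM after stimulation. The stimulated libraries spread widely, with mouse 2 the lowest, yet all lay above all rested ones (log2 2.10, SE 0.225, adjusted p = 1.20e-09). Slc7a6 rose from 39.5 to 60.7 CPM at rest to 65.9 to 98.4 CPM, without overlap here (log2 0.80, SE 0.204, adjusted p = 9.75e-04). 

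Slc38a2 in IP stood at 192, 182, 183, 165 and 243 CPM at rest and at 117, 170.4, 175, 201 and 141 CPM after stimulation. The groups overlapped, mouse 4 was higher after stimulation, and the log2 change of -0.26 (SE 0.139) missed the test (adjusted p = 0.0983). With the mouse as a block it was -0.28 (adjusted p = 0.0356), and without mouse 4 it was -0.42 (adjusted p = 0.0218). Slc7a1 in IP had a log2 change of 0.37 (SE 0.194, adjusted p = 0.0977), and passed without mouse 2 (0.53, adjusted p = 0.0277) and in mice 3 to 5 alone (0.61, adjusted p = 5.41e-03).

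The share of each mRNA found on tagged ribosomes was compared next, as IP against Input of the same cultures. In rested cells 1 of the 7 was called, against 6.89% of all genes: Slc38a2 was lower in IP in all 5 mice, at 165 to 243 CPM against 249 to 376 CPM in Input (log2 -0.69, SE 0.137, adjusted p = 1.81e-03). For the other 6 at rest, the estimates lay between -0.34 (Slc7a6) and 0.22 (Slc7a1). In stimulated cells 0 of 7 were called by edgeR or DESeq2 (0.977% of all genes called by edgeR). At an unadjusted p under 0.05 there was 1 (1462 of all 10751 genes), Slc38a2 at -0.29 (lower in 5 of 5 mice). With Tregs 0 of 7 were called by either tool (1.85% of all genes). There 2 had an unadjusted p under 0.05 (1801 of all 10751 genes). The 2 were Slc1a5 at -0.33 (adjusted p = 0.13) and Slc38a2 at -0.33 (adjusted p = 0.226), each lower in IP in 5 of 5 mice. With the culture shared by IP and Input as a block, both passed, at -0.34 (adjusted p = 4.61e-03) and -0.33 (adjusted p = 0.0238). The share of all genes called under that block was not counted.

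The change of IP over Input on stimulation was tested as an interaction, and 0 of 7 were called by edgeR or DESeq2 (0.0279% of all genes). At an unadjusted p under 0.05 there was 1 (604 of all 10751 genes), Slc38a2, at 0.40 (95% interval 0.0011 to 0.795, adjusted p = 0.887). For Slc7a5 the interval ran from -0.74 to 0.54. The widths of these intervals show how large a shift between total and ribosome-bound RNA could have gone undetected in 5 mice.

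In SPEED Input, where the control cells were untreated and not rested in IL7, 3 of the 7 were higher after stimulation and 2 lower (27.9% of all genes higher, 26.5% lower). Slc1a5 rose 1.79-fold, Slc7a5 1.62-fold and Slc7a6 1.5-fold. Slc38a2 fell to 0.386 and Slc3a2 to 0.729 of the untreated level. The median log2 change of the 7 was 0.31, and 0.008 over all genes.

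In mice 1 to 4, Slc7a5 stood at 95.7, 155, 110.1 and 139 CPM in untreated Input and at 219, 246, 149 and 197 CPM in stimulated Input. All 4 mice rose, though stimulated mouse 3 lay below untreated mouse 2 (log2 0.70, SE 0.163, adjusted p = 4.33e-04). Slc3a2 stood at 269, 243, 282 and 309 CPM in untreated Input and at 201, 209, 192 and 203 CPM after stimulation. The groups did not overlap and every mouse fell (log2 -0.46, SE 0.0943, adjusted p = 9.08e-05). In this assay, then, the light chain Slc7a5 and its heavy chain partner changed in opposite directions.

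Slc38a2 showed the widest gap of the 7 in SPEED. It stood at 527, 453, 509 and 414 CPM in untreated Input and at 205, 171, 174 and 183 CPM after stimulation (log2 -1.38, SE 0.0963, adjusted p = 4.80e-15, lower in 4 of 4 mice). Slc1a5 stood at 179, 154, 180.3 and 179.6 CPM in untreated Input and at 324, 326, 272 and 322 CPM after stimulation, again with no overlap (log2 0.84, SE 0.122, adjusted p = 2.66e-07). Slc7a6 went from 66.6, 50.2, 90.7 and 78.8 CPM to 109, 121, 105 and 92.9 CPM (log2 0.58, SE 0.176, adjusted p = 5.13e-03), and that call was lost when mouse 2 was left out (0.39, adjusted p = 0.123). Slc38a1 had 196 to 237.6 CPM untreated and 194 to 282 CPM stimulated, and its log2 change of 0.21 (SE 0.111, adjusted p = 0.116) passed without mouse 3 (0.30, adjusted p = 0.0422). Slc7a1 had a log2 change of 0.31 (SE 0.217, adjusted p = 0.236).

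**Figure D2:**
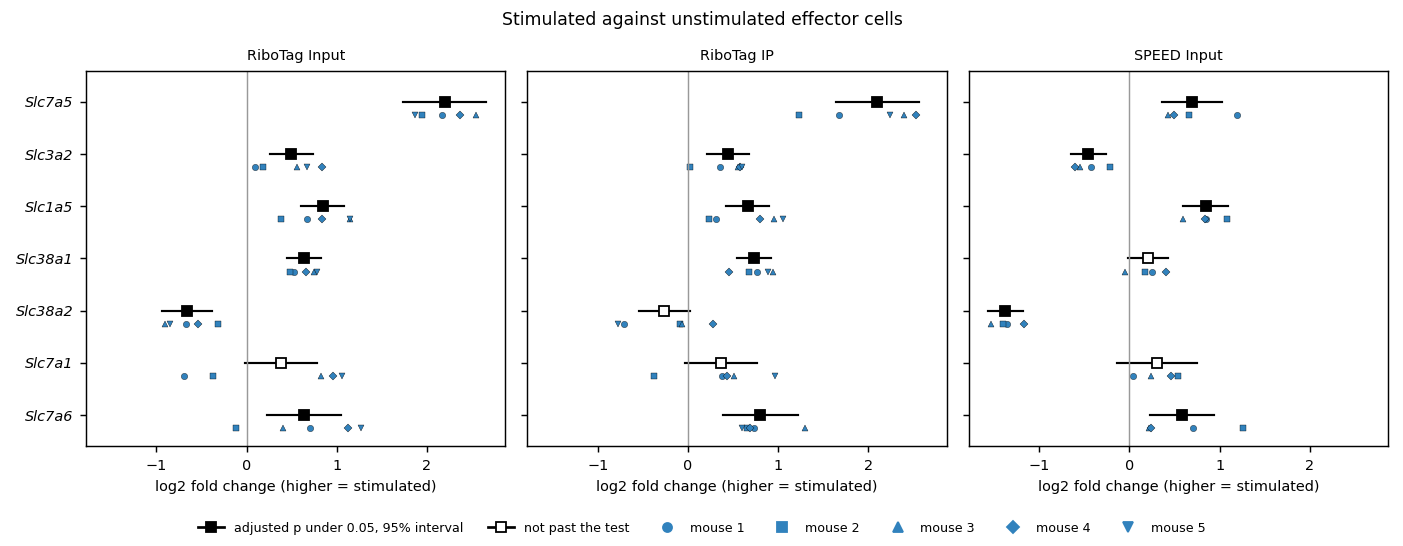
Log2 fold change on stimulation (x axis) of the 7 genes (y axis) in RiboTag Input, RiboTag IP and SPEED Input. Squares are edgeR estimates with 95% intervals, filled at an adjusted p under 0.05, and small markers are single mice. Slc3a2 lies at 0.50 in RiboTag Input and -0.46 in SPEED Input, while Slc1a5 lies at 0.84 in both.

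The response to stimulation was set between the assays in 1 fit of the 27 Input libraries of both. Of the 7, 4 had a higher change in RiboTag than in SPEED, where 17.8% of all 11232 genes differed in either direction. The difference in log2 change was 1.51 for Slc7a5 (SE 0.281, adjusted p = 3.14e-04), 0.96 for Slc3a2 (SE 0.16, adjusted p = 8.02e-05), 0.73 for Slc38a2 (SE 0.163, adjusted p = 2.17e-03) and 0.44 for Slc38a1 (SE 0.142, adjusted p = 0.0297). For Slc38a1 the call was lost when RiboTag mouse 3, 4 or 5 or SPEED mouse 2 or 3 was left out (adjusted p = 0.0501 to 0.0891), with differences of 0.37 to 0.43, and without the filter on low counts (0.44, adjusted p = 0.0542). Slc1a5 changed by nearly the same amount in both, with a difference of 0.005 and a 95% interval from -0.29 to 0.30. The control cells differ in these levels: Slc7a5 had a mean of 63.6 ± 15.1 CPM (SD, n = 5) in IL7-rested Input and 125 ± 27.1 CPM (SD, n = 4) in untreated Input. Slc3a2 had means of 175 ± 15.9 and 276 ± 27.8 CPM, and Slc38a2 had means of 310.3 ± 52.3 and 475.8 ± 51.8 CPM. Stimulated Input differed too, with means for Slc7a5 of 290.8 ± 66.1 CPM in RiboTag and 202.4 ± 41.1 CPM in SPEED. The stimulated means were 246.3 ± 53.0 and 201 ± 6.8 CPM for Slc3a2, and 195.8 ± 29.1 and 183.4 ± 15.1 CPM for Slc38a2. The libraries of the assays were scaled separately for these means. Assay, kind of control, strain and mice cannot be told apart in this difference.

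With Tregs in the culture, 0 of the 7 transporters passed the test in RiboTag Input (4.53% of all genes were called) and 0 in IP (5.69%). That fit does not use the pairing by mouse. With the mouse as a block, 1 was called lower in Input (Slc7a5) and 2 in IP (Slc7a5 and Slc3a2). The shares of all genes called under the block or by DESeq2 were not counted, so 4.53% and 5.69% are no background for those calls. In the main fit all 7 estimates were below 0 in Input and in IP, with medians of -0.09 and -0.20 against 0.005 and 0.002 over all genes. In Input 2 of the 7 had an unadjusted p under 0.05 by edgeR, as did 1952 of all 10751 genes, and DESeq2 called 0. In IP there were 3, against 2154 of all 10751 genes, and DESeq2 called 2 of the 3, Slc7a5 and Slc3a2. Slc7a5 had the lowest estimate in both, followed by Slc3a2 in IP and by Slc7a6 and Slc3a2, which were nearly equal, in Input.

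With Tregs, Slc7a5 in Input stood at 130, 186, 249, 251 and 202 CPM in mice 1 to 5, against 224, 222, 318, 374 and 315 CPM in the stimulated cultures of the same mice. Each mouse was lower with Tregs than without, while the ranges of the groups overlapped. The log2 change was -0.52 (SE 0.208, adjusted p = 0.158), and with the mouse as a block it was -0.51 and passed (adjusted p = 0.0182), as did mice 3 to 5 alone (-0.52, adjusted p = 0.0199). All 5 Treg values still lay above the highest rested value of 85.8 CPM. In IP, Slc7a5 with Tregs stood at 108, 168, 226, 251 and 184 CPM against 218, 156, 323, 387 and 347 CPM. It was lower in 4 of 5 mice, mouse 2 being the exception (log2 -0.62, SE 0.209, adjusted p = 0.075). There the blocked value was -0.60 (adjusted p = 5.59e-03), DESeq2 gave -0.63 (adjusted p = 0.0448) and mice 3 to 5 alone gave -0.67 (adjusted p = 5.15e-03).

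Slc3a2 in Treg cultures lay close together, at 198, 191, 199, 223 and 198 CPM in Input, while stimulated Input without Tregs split into mice 1 and 2 (196 and 182 CPM) and mice 3 to 5 (280.1 to 290.1 CPM). It was lower with Tregs in mice 3 to 5 and not in mice 1 and 2. The log2 change was -0.29 (SE 0.114, adjusted p = 0.144). In mice 3 to 5 alone, the mice with the high stimulated values, it was -0.47 (adjusted p = 2.93e-03). In IP, Slc3a2 stood at 200.3, 207, 203, 225 and 219 CPM with Tregs and at 228, 209, 279, 316 and 297 CPM without. All 5 mice were lower (log2 -0.34, SE 0.114, adjusted p = 0.0746). The test was passed with the mouse as a block (-0.32, adjusted p = 0.031), by DESeq2 (-0.35, adjusted p = 0.0405), without mouse 2 (-0.41, adjusted p = 0.0404) and in mice 3 to 5 alone (-0.46, adjusted p = 3.91e-03).

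Of the other 5 genes, Slc38a1 in IP came nearest to a call. It stood at 233 to 277 CPM with Tregs and at 283 to 309.6 CPM without, with no overlap (log2 -0.20, SE 0.0895, adjusted p = 0.189). Slc1a5 had -0.06 in Input and -0.21 in IP, and Slc7a6 had -0.30 and -0.14. Slc38a2 had -0.09 and -0.13, so the gene that fell on stimulation was not higher with Tregs in these RiboTag estimates. In SPEED, Slc38a2 with Tregs had 0.03 in Input (higher in 3 of 4 mice) and 0.12 in Pol (4 of 4), neither called. IP over Input with Tregs gave 0 calls among the 7 by edgeR and DESeq2, and 0% of all genes were called by edgeR. At an unadjusted p under 0.05 there were 0 of the 7 (125 of all 10751 genes). The estimates of IP over Input lay between -0.14 and 0.16.

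**Figure D3:**
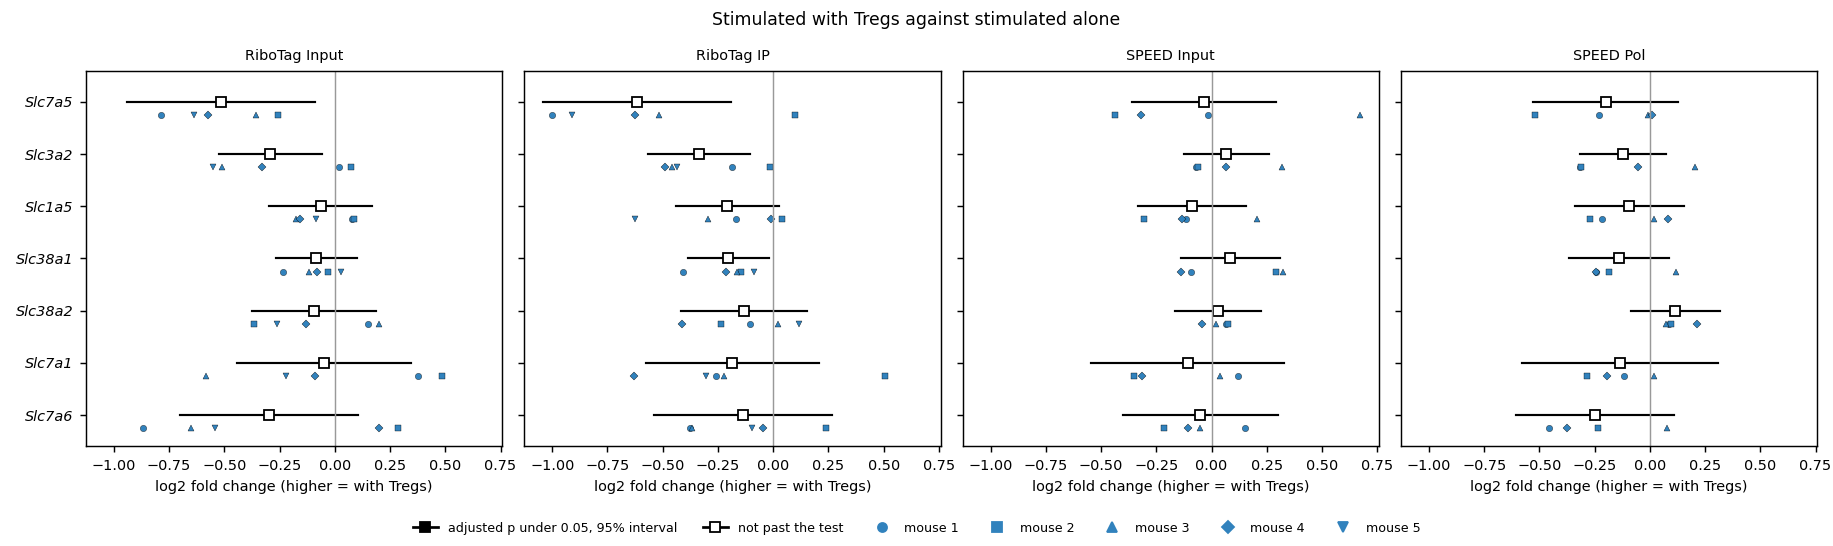
Log2 fold change with Tregs (x axis) of the 7 genes (y axis) in RiboTag Input and IP and in SPEED Input and Pol. Squares are edgeR estimates with 95% intervals, open where the adjusted p is 0.05 or more, and small markers are single mice. Slc7a5 lies at -0.52 and -0.62 in RiboTag and at -0.03 and -0.20 in SPEED.

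In SPEED, Tregs gave 0 calls among the 7 in Input (0.587% of all genes) and in Pol (0.282%), by edgeR and by DESeq2. In each, 0 of the 7 had an unadjusted p under 0.05, against 1795 of all 12428 genes in Input and 993 in Pol. Slc7a5 in Input stood at 217, 181, 237 and 157 CPM with Tregs and at 219, 246, 149 and 197 CPM without, with mouse 3 clearly higher with Tregs and the others lower. The log2 change was -0.03, with a 95% interval from -0.36 to 0.29. In Pol it was -0.20 (-0.53 to 0.13). Pol over SubPol did not pass for any of the 7 with Tregs by edgeR or DESeq2, and 0% of all genes were called by edgeR. For that ratio 0 of the 7 had an unadjusted p under 0.05 (328 of all 12428 genes). The estimates there lay between -0.38 (Slc7a6) and 0.03 (Slc7a1).

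The difference between the assays in the effect of Tregs on Input was tested too, and 0 of 7 were called by edgeR and DESeq2 (0.142% of all genes). At an unadjusted p under 0.05 there was 1 (716 of all 11232 genes), Slc3a2, at -0.35 (adjusted p = 0.736). Slc7a5 had -0.47 (95% interval -1.02 to 0.08, adjusted p = 0.811). The lower values of Slc7a5 and Slc3a2 with Tregs in RiboTag were therefore not shown to differ from SPEED.

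Polysomal and subpolysomal RNA of the same culture were compared within each SPEED condition, to see which transporter mRNAs leaned towards polysomes. In stimulated cells 5 of the 7 were higher in Pol than in SubPol, where 23.6% of all genes were: Slc7a1, Slc7a5, Slc7a6, Slc1a5 and Slc38a1, by 1.32-fold to 1.64-fold. Untreated cells had 2 of 7 (21.9% of all genes), Slc1a5 and Slc7a5. With Tregs there were 4 of 7 (22.6%), the stimulated list without Slc7a6, and with HHT 3 of 7 (4.51%), Slc38a2, Slc1a5 and Slc38a1. The heavy chain Slc3a2 was called in none of the 4 conditions, with log2 ratios between 0.004 and 0.15.

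Slc1a5 was called in all 4 conditions. In untreated cells it stood at 210, 162, 169 and 206 CPM in Pol against 121, 69.6, 92.1 and 96.6 CPM in SubPol (log2 0.98, SE 0.128, adjusted p = 8.74e-08), and no library of one fraction reached the other. The ratio was 0.64 after stimulation alone, 0.54 with Tregs and 0.80 under HHT. Slc7a5 in stimulated cells stood at 285, 274, 221 and 193 CPM in Pol against 186, 148, 134 and 140.4 CPM in SubPol (log2 0.68, SE 0.165, adjusted p = 7.46e-04). With Tregs its ratio was 0.69 (adjusted p = 7.27e-04). In untreated cells it was 0.44 (SE 0.168, adjusted p = 0.0326), a call that was lost without mouse 1, 3 or 4 (0.35 to 0.46, adjusted p = 0.0769 to 0.203), without the SubPol library of mouse 3 (0.37, adjusted p = 0.13) and under RLE scaling (0.40, adjusted p = 0.0569).

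The 2 SNAT genes again differed. Slc38a1 leaned towards Pol in stimulated cells (log2 0.40, SE 0.112, adjusted p = 3.44e-03) and with Tregs (0.41, adjusted p = 3.00e-03). Slc38a2 had near equal levels in both fractions: 129.8 to 147 CPM in Pol and 109 to 135 CPM in SubPol of stimulated cells (0.13, SE 0.1, adjusted p = 0.317), and 391 to 501 CPM against 389 to 478 CPM in untreated cells (0.05, adjusted p = 0.703). Its level in both fractions was lower in all 4 stimulated mice than in any untreated mouse. Slc7a1 had ratios of 0.71 in stimulated cells (SE 0.225, adjusted p = 8.65e-03) and 0.74 with Tregs (SE 0.225, adjusted p = 6.56e-03). Both calls were lost without mouse 3 (adjusted p = 0.0874 and 0.0754), and the first also without mouse 4 (adjusted p = 0.0606). In untreated cells its ratio of 0.51 (adjusted p = 0.0682) passed with the mouse as a block (0.52, adjusted p = 0.0289), with the culture as a block (0.54, adjusted p = 5.98e-03) and without mouse 1 (0.63, adjusted p = 0.0186). Slc7a6 had 0.67 in stimulated cells (SE 0.179, adjusted p = 1.99e-03), 0.11 untreated and 0.29 with Tregs, the last passing without mouse 3 (0.50, adjusted p = 0.0214).

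**Figure D4:**
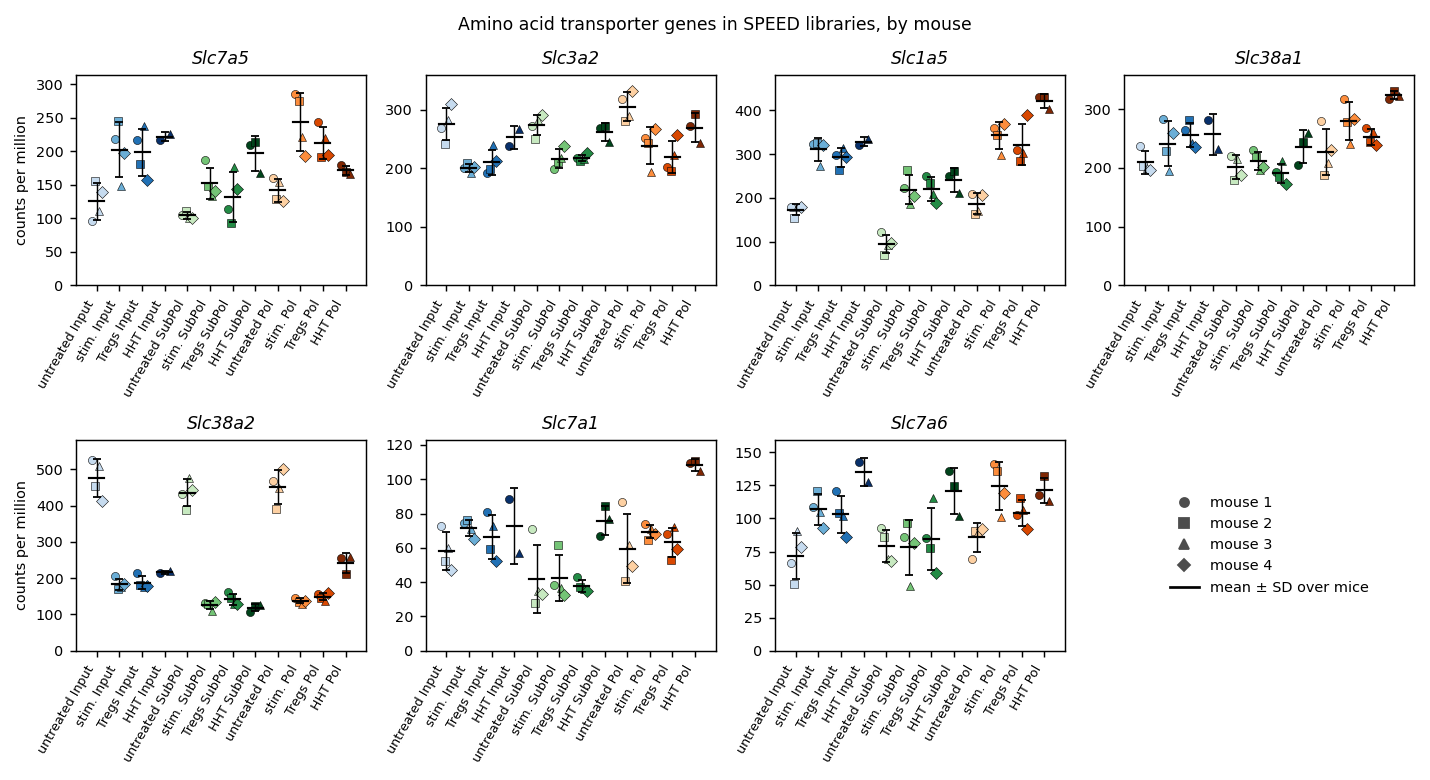
Levels of the 7 genes in TMM-scaled CPM (y axis, from 0) in the 12 SPEED groups (x axis: Input, SubPol and Pol, each in 4 conditions), 1 point per mouse, with mean and SD. Slc38a2 is at 389 to 527 CPM in all untreated groups and at or below 259 CPM elsewhere, and under HHT it is at 210 to 259 CPM in Pol against 108 to 126 CPM in SubPol.

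The change of Pol over SubPol on stimulation gave 0 calls among the 7 by edgeR and DESeq2 (2.6% of all genes). At an unadjusted p under 0.05 there was 1 (2183 of all 12428 genes). It was Slc7a6 at 0.56 (95% interval 0.05 to 1.07, adjusted p = 0.228, higher in 4 of 4 mice). Slc7a5 had 0.24 (-0.24 to 0.71) and Slc1a5 had -0.33 (-0.69 to 0.02). The larger number of calls in stimulated than in untreated cells is therefore not itself a tested difference.

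HHT for 10 min moved Slc38a2 and Slc7a5 in opposite directions between the fractions. Pol over SubPol rose for 1 of the 7, Slc38a2, and fell for 1, Slc7a5, against stimulated cells without HHT (10.3% of all genes rose and 12.7% fell). Slc38a2 under HHT stood at 255, 210, and 259 CPM in Pol of mice 1 to 3 against 108, 122 and 126 CPM in SubPol. Without HHT the 4 mice had 147, 136, 129.8 and 137 CPM in Pol and 132, 128, 109 and 135 CPM in SubPol. In scaled CPM, the HHT and stimulated libraries did not overlap in Pol, while the SubPol ranges overlapped. Neither fraction was tested alone for Slc38a2. The change in the log2 ratio was 0.90 (SE 0.151, adjusted p = 2.83e-05, higher in 3 of 3 mice), and the ratio under HHT was 1.03 (SE 0.113, adjusted p = 1.36e-07).

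Slc7a5 under HHT stood at 179, 169 and 166 CPM in Pol and at 209, 214 and 167 CPM in SubPol, where stimulated cells had 193 to 285 CPM in Pol and 134 to 186 CPM in SubPol. In scaled CPM, Pol was lower and SubPol mostly higher than in stimulated cells, with neither fraction tested alone. Mouse 3 had nearly equal levels in both fractions. The change in the log2 ratio was -0.88 (SE 0.251, adjusted p = 8.72e-03, lower in 3 of 3 mice). It was lost without mouse 1 (-0.91, adjusted p = 0.0523) and without mouse 2 (-0.75, adjusted p = 0.0752). With Input in place of SubPol as the denominator, and 2 HHT Input libraries, neither gene passed: Slc38a2 had 0.58 (adjusted p = 0.0894) and Slc7a5 -0.64 (adjusted p = 0.362).

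The light chain Slc7a6 had a change of -0.67 (SE 0.269, adjusted p = 0.0672, lower in 3 of 3 mice) and passed with the culture as a block (-0.68, adjusted p = 0.0349) and in a fit limited to the groups compared (-0.70, adjusted p = 0.0406). Slc1a5, Slc38a1, Slc3a2 and Slc7a1 had changes between -0.20 and 0.16, none past the test. Slc38a1 was called higher in Pol under HHT (0.45, SE 0.128, adjusted p = 0.0251), a call lost without any 1 of the 4 mice (adjusted p = 0.0522 to 0.19), without the filter on low counts (0.42, adjusted p = 0.0834) and in a fit limited to the groups compared (0.42, adjusted p = 0.0606). Slc7a1 passed neither the test of the ratio nor that of Input with HHT, and its Pol libraries under HHT held 109.6, 111 and 105 CPM against 64.8 to 74.2 CPM in stimulated Pol, and its SubPol libraries held 66.9 to 84.4 against 32.4 to 61.8 CPM. These single-fraction levels were not tested.

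**Figure D5:**
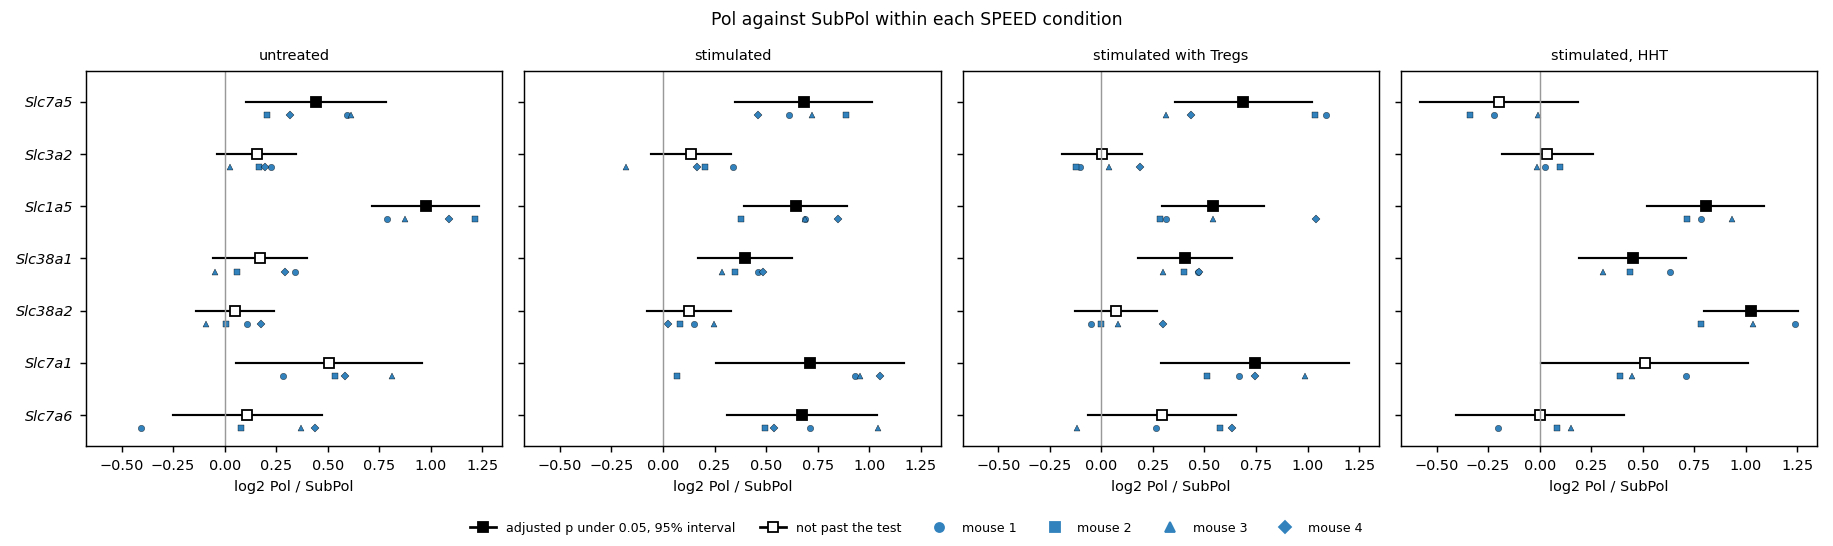
Log2 ratio of Pol to SubPol (x axis) of the 7 genes (y axis) in the 4 SPEED conditions. Squares are edgeR estimates with 95% intervals, filled at an adjusted p under 0.05, and small markers are single mice. Slc38a2 lies at 0.05, 0.13 and 0.07 without HHT and at 1.03 with it, and Slc7a5 goes from 0.68 in stimulated cells to -0.20 under HHT.

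In total RNA, HHT changed none of the 7 past the test: in Input 0 were called by edgeR or DESeq2 (0.105% of all genes). An unadjusted p under 0.05 was found for 2 of the 7 (1025 of all 12428 genes). The 2 were Slc3a2 at 0.33 (95% interval 0.10 to 0.56, adjusted p = 0.451) and Slc38a2 at 0.24 (0.0012 to 0.47, adjusted p = 0.604). Slc3a2 stood at 239 and 267 CPM in the HHT Input libraries and at 192 to 209 CPM in stimulated Input, with no overlap. All 7 estimates were above 0, with a median of 0.13 against 0.004 over all genes.

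Across the 18 group means of both assays, each assay centred on its own mean, Slc38a1 followed Slc7a5 most closely among the members. The measure was Pearson's r over group means of log2 CPM, which share mice, cultures and stimulation, and it is a description of 6717 genes whose mean log2 CPM was 5 or more. Slc38a1 had r = 0.861 with Slc7a5 (rank 210), Slc7a6 had 0.84 (rank 312), Slc1a5 had 0.72 (rank 1052) and Slc7a1 had 0.534 (rank 1871). The dimer partner Slc3a2 had r = 0.284 (rank 2627), so many genes tracked Slc7a5 more closely than the gene its protein pairs with. Slc38a2 had r = -0.477 (rank 4872). The 2 genes most like Slc7a5 were ENSMUSG00000027030 (r = 0.962) and ENSMUSG00000022814 (r = 0.951), for which no symbol was matched. ENSMUSG00000027030 had a mean log2 CPM of 5.34 in rested, 7.15 in stimulated and 6.61 in Treg Input of RiboTag.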

How the data were processed

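RNA of CD4 effector T cells was measured in 75 libraries of 18 groups. The authors deposited whole-number read counts per gene, 1 table per assay. The submitters' processing notes name SAMtools 1.2, FastQC 0.11.3, HTSeq 0.4.1, Picard 1.134 and the build GRCm38, while the sources used here give no aligner. The kits were SMART-Seq v4 and NexteraXT, per the labels' protocols. SMART-Seq v4 does not mark strand, so reads of overlapping antisense genes cannot be told apart. Of the RiboTag counts, 16 other columns could be matched to no sample and stayed out.

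The counts were fitted with edgeR 4.0.16 in R 4.3.3 (filterByExpr at a minimum count of 10, TMM scaling, robust quasi-likelihood fit, 1 coefficient per group), with 30 RiboTag, 44 SPEED or 27 Input libraries per fit. Tests were two-sided, and p-values were adjusted by Benjamini-Hochberg over all genes with a threshold of 0.05. Changes of a fraction ratio with stimulation, Tregs or HHT, and differences between assays, were tested as interactions. A fraction ratio within 1 condition was a contrast of 2 groups, without the pairing by culture in the main fit. Of 2 HHT Input libraries titled for mouse 1, the later was left out. Alternatives were DESeq2 1.42.0, RLE scaling, no filter, the mouse or the culture as a block, only the groups compared, and leaving out each mouse. The fits were tested on simulated counts drawn without a mouse or culture effect, so that test does not bear on the pairing.

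The labels give each sample's mouse, and a shared number is a shared mouse, which pairs the samples. The mean correlation of deviations from group means was 0.214 (RiboTag) and 0.0922 (SPEED) between samples of 1 mouse, against -0.0525 and -0.0304 between samples of different mice. Between 2 libraries of a group, the chi-square per degree of freedom was 1.81 or more in 123 pairs, so none was counted as a copy.

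The transporters, the rule for naming genes (all 7, and the 2 genes most like Slc7a5) and the tests were chosen with earlier results of these data known. The planned lists of other transporters, tRNA synthetases, amino acid enzymes and nutrient sensors, and the cell type markers, need symbols, which were matched here for the 7 transporters alone, so they were not analysed here. No sequence is shown, since the counts bear on whole genes.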

Additional observations from a re-analysis of the deposited data

Results flagged for a closer look

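The response of Input RNA to stimulation differed between the assays for 4 of the 7 genes, by a test of the difference itself (RiboTag minus SPEED): 1.51 for Slc7a5, 0.96 for Slc3a2, 0.44 for Slc38a1 and 0.73 for Slc38a2, on the log2 scale. For Slc3a2 the estimates had opposite signs, and for Slc38a2 both were below 0. Assay, control, strain and mice cannot be told apart.

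In 105 sets of 4 or 5 libraries (a gene in a group), 7 held a library far from the others, where chance gives about 1 in 20. Slc1a5 in stimulated SPEED Input was at 272 CPM in mouse 3 against 322 to 326 CPM, and in untreated SPEED Input at 154 CPM in mouse 2 against 179 to 180.3 CPM. Slc38a1 was at 233 CPM in mouse 1 in RiboTag IP with Tregs against 265 to 277 CPM, and at 283 CPM in mouse 5 in stimulated RiboTag IP against 302 to 309.6 CPM. Slc38a2 was at 214 CPM in mouse 1 in SPEED Input with Tregs against 177 to 180.1 CPM. Slc3a2 was at 223 CPM in mouse 4 in RiboTag Input with Tregs against 191 to 199 CPM. Slc7a6 was at 69.7 CPM in mouse 1 in untreated Pol against 89.9 to 92.2 CPM.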

How the results depend on the processing

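The 7 genes in 22 comparisons gave 154 values, recomputed under 1701 alternatives in all. In 1649 the side of the threshold and, for called values, the direction were kept. In 26 a call was lost, in 26 one was gained and in 0 a called value changed direction, while 106 changed sign with neither fit past the test. The number of the 7 called moved as follows. For Tregs in RiboTag Input it was 0, with 1 under the mouse block and 2 in mice 3 to 5 alone. For Tregs in IP it was 0, with 2 under the mouse block, 2 by DESeq2, 2 in mice 3 to 5 alone and 0 to 1 with 1 mouse left out. For IP against Input with Tregs it was 0, with 2 under the culture block. For the change of Pol over SubPol with HHT it was 2, with 0 for Pol over Input and 1 to 2 with 1 mouse left out. For Pol against SubPol in untreated cells it was 2, with 1 under RLE scaling, 1 without the SubPol library of mouse 3 and 1 to 2 with 1 mouse left out. The other 17 comparisons kept their counts within 1.5 times under the alternatives run, and the mouse block moved no other count beyond that. Single calls lost or gained are given beside each gene, and the cause was not tested. With 5, 4 or 3 mice per group, and 2 in HHT Input, smaller changes than the intervals given can go undetected.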
